A study of Brassica napus with 6 samples.

Results

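Ribosomal proteins of the cytosolic large subunit (60S) were examined in oilseed rape roots after glutathione had been applied to the leaves. The set comprised 60 Arabidopsis loci for 27 proteins of the 60S subunit, without the acidic P-stalk proteins. Of these, 37 genes, for 20 proteins, were paired alone with a probe of the array, among 13350 genes paired in this way. Another 4 loci shared a probe with a second gene, and 19 had no probe named here, so no value is given for them. The measured genes had 1 probe each, and all 37 probes were of the type designed to match a single Arabidopsis gene. The set was selected on the measured difference between the GSH and control arrays, in which ribosomal protein genes had stood lower, so every value of that comparison is a description and carries no test.

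The 60S subunit joins amino acids into protein. Its ribosomal RNA forms the catalytic centre, and its proteins hold that RNA in shape, line the tunnel through which the new chain leaves, and form movable stalks that engage translation factors. Plants encode nearly every ribosomal protein in several paralogous genes, whose products can replace one another in the particle, and growing root tips are rich in ribosomes. The protein of each locus follows Arabidopsis nomenclature, and the roles given below are known from yeast, animal and archaeal ribosomes.

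Roots came from Brassica napus cv. Nourin No.16 grown for 4 weeks in nutrient solution. In the foliar GSH group (3 arrays), reduced glutathione, a thiol tripeptide, had been brushed daily on source leaves for 4 days, at 100 mM in buffer with detergent, 50 µL on each of 3 leaves per plant. In the control group (3 arrays), plants were left untreated. The labels record no buffer on the control leaves, so an effect of GSH and one of the brushed solution cannot be told apart. The labels call the arrays of a group biological replicates. They do not say how many of the 4 seedlings that shared a container went into a sample.

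Rape RNA was read through Arabidopsis probes, so sequence differences between the species can weaken a signal, and a probe can pick up several rape homoeologues. The deposited values ran from 5.09 to 11.6 on a log-like scale over 22746 probes. Arrays were almost identical, and the median range of a probe over the 6 arrays was 1.91 millionths of a unit. Values are therefore given as deviations, in millionths of a deposited unit, of an array from the gene's mean over the 6 arrays. They are not fold changes, and their sizes cannot be compared between genes. To set genes side by side, the difference between group means was divided by the gene's pooled within-group SD, giving a standardised difference. In whole roots, fewer cells of a type and less RNA per cell cannot be told apart.

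All 37 measured 60S genes had a lower mean in roots of GSH-treated plants than in control roots. Over all probes, 48.0% had a lower mean after GSH. With each array centred on its median, which added 0.598 millionths to every difference, 36 of the 37 members and 18.6% of all probes were lower. Only AT3G16780, at -0.163 millionths, had a difference smaller in size than this shift, so no other member could turn. The median range over the arrays was 35.2 millionths for the members and 1.91 for all probes. The centred shares are therefore not a like comparison, and none is given for bright probes. At 29 of the 37 genes every GSH array lay below every control array, against 5.75% of all probes, and at 0 members did every GSH array lie above every control, against 5.63%. Among probes above the 90th percentile of signal, where 28 of the 37 genes lie, 53.7% had a lower mean after GSH. At 15.9% of these bright probes every GSH array lay below every control, and at 8.31% every GSH array lay above. The median standardised difference was -2.94 over the members and 0.05 over all probes, and the members ran from -15.01 to -0.31. On the deposited scale the differences ran from -305 to -0.163 millionths, with a median of -21.2. By limma over all 22746 probes, 0 were called at an adjusted p (Benjamini-Hochberg) under 0.05, a background of 0.0%, and 1535 had an unadjusted p under 0.05. Single members are therefore not separated from the spread between arrays by that test.

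**Figure D1:**
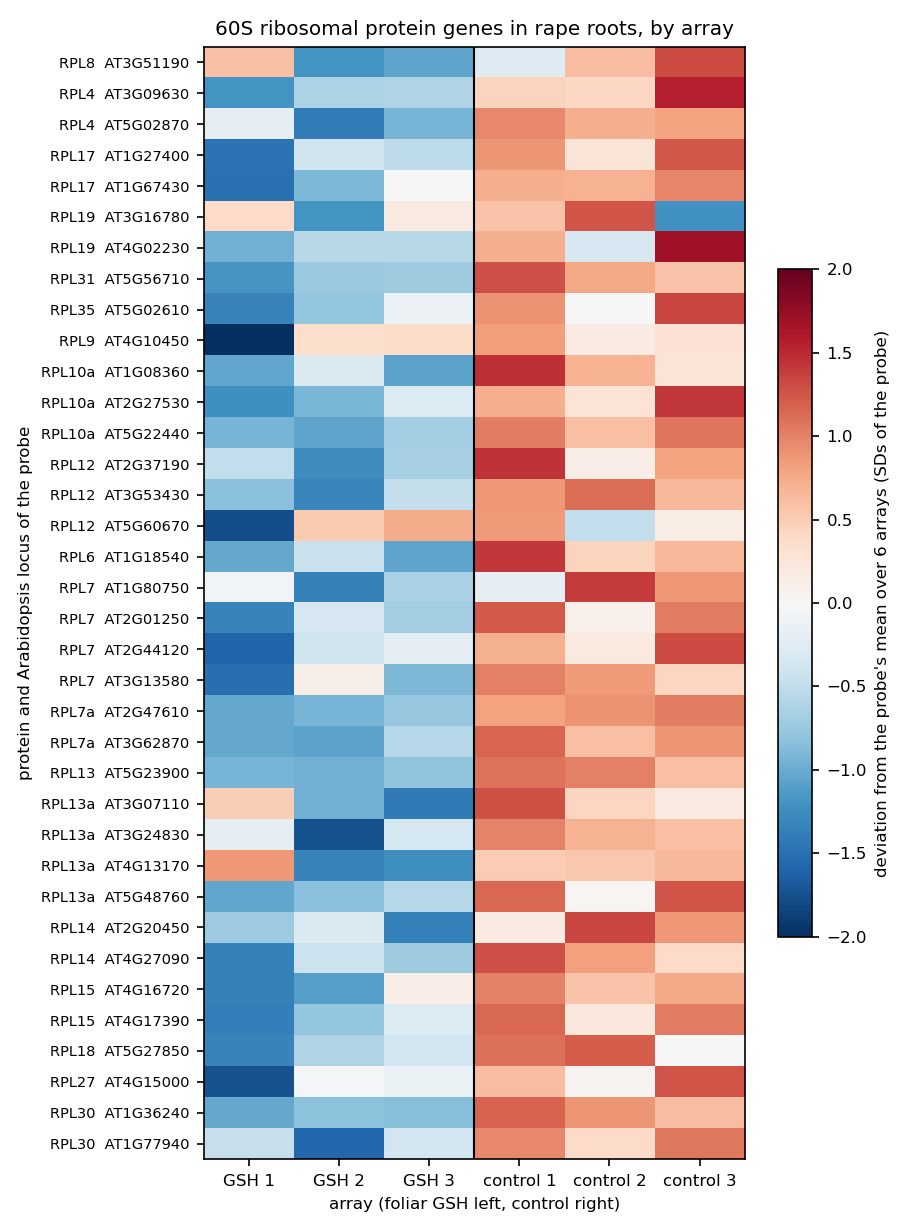
Heat map of 36 of the measured 60S genes (rows, with protein and locus) in the 3 foliar GSH arrays and the 3 control arrays (columns). Colour gives the deviation of an array from the gene's mean over 6 arrays in SDs of its probe, blue below and red above, and most rows are blue in the GSH columns and red in the control columns.

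Of the 11 members for proteins at the polypeptide tunnel, 8 were measured, and the groups did not overlap at 7 of these. RPL4 and RPL17 reach into the tunnel and form its narrow part. The RPL17 gene AT1G67430 deviated by -283, -172 and -2.29 millionths in foliar GSH replicates 1 to 3, against 138, 133 and 186 in control replicates 1 to 3. The control values lay close together, while the GSH values were spread widely and replicate 3 stood nearest to the controls. The difference was -305 millionths (SE 83.4), or -2.98 SDs. Its paralogue AT1G27400 had a standardised difference of -2.94, almost the same.

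Both RPL4 genes were fully separated. AT5G02870 deviated by -7.95, -65.0 and -43.0 millionths in GSH roots, against 44.7, 33.7 and 37.5 in control roots, a difference of -77.3 (SE 16.9). AT3G09630 deviated by -9.38, -5.0 and -4.74 millionths in GSH roots, against 3.56, 3.30 and 12.3 in control roots, a difference of -12.7 (SE 3.31). The lowest GSH array was replicate 2 for AT5G02870 and replicate 1 for AT3G09630, so the paralogues shared the direction but not the order of the arrays.

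At the tunnel exit, where RPL19, RPL31 and RPL35 surround the opening, the separation varied. The RPL31 gene AT5G56710 deviated by -16.8, -10.6 and -10.3 millionths in GSH roots, against 18.4, 11.0 and 8.28 in control roots (difference -25.1, SE 3.69). This was the clearest separation among the measured tunnel members, at -5.56 SDs. The RPL35 gene AT5G02610 deviated by -20.3, -11.8 and -1.80 millionths in GSH roots, against 13.7, -0.205 and 20.4 in control roots. Its groups were separated by 1.59 millionths only, between GSH replicate 3 and control replicate 2. The RPL19 gene AT4G02230 was also just separated, by 1.21 millionths, with deviations of -5.29, -3.06 and -3.07 in GSH roots and 4.03, -1.85 and 9.25 in control roots. The other RPL19 gene, AT3G16780, had a dim probe and overlapping groups, at 0.158, -0.475 and 0.0720 millionths in GSH roots and 0.225, 0.505 and -0.485 in control roots. Its difference of -0.163 millionths was smaller than its SE of 0.355, and it was 0.0333 without GSH replicate 2 and 0.0483 without control replicate 2. Outside the set, the RPL31 genes AT2G19740 and AT4G26230 were separated, at -3.22 and -2.81 SDs. The RPL35 gene AT3G09500 was separated too, at -2.19 SDs, while AT2G39390 and AT3G55170 had overlapping groups, at 0.59 and 0.078 SDs.

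Among the stalk proteins 7 of 8 genes were measured, 5 of them without overlap. RPL10a forms the L1 stalk, which guides spent tRNA out of the ribosome. Its gene AT5G22440 deviated by -35.6, -40.4 and -26.3 millionths in GSH roots, against 38.9, 22.9 and 40.6 in control roots (difference -68.2, SE 6.99). The groups stood 49.2 millionths apart, more than the spread within either. PGY1 (AT2G27530), the RPL10a gene known from leaf patterning mutants, deviated by -66.8, -50.1 and -15.2 millionths in GSH roots, against 39.4, 15.3 and 77.4 in control roots. Its standardised difference of -3.05 was near the -3.01 of the remaining RPL10a gene, AT1G08360.

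RPL12 sits at the base of the P stalk, and its 3 genes differed in the degree of separation. AT3G53430 deviated by -7.21, -11.2 and -4.12 millionths in GSH roots, against 7.42, 9.58 and 5.54 in control roots, with a standardised difference of -5.20. AT2G37190 was also separated, at -2.94 SDs. AT5G60670 was not, with -9.51, 2.80 and 4.00 millionths in GSH roots and 4.58, -2.65 and 0.788 in control roots. Its lower GSH mean rested on replicate 1, without which the difference was 2.49 millionths, and without control replicate 1 it was 0.0265. The RPL9 gene AT4G10450, for a protein near the factor-binding site, showed the same array pattern, with -34.7, 6.01 and 6.33 millionths in GSH roots against 14.5, 2.90 and 4.99 in control roots. Without GSH replicate 1 its difference was -1.28 millionths, against -14.9 with all arrays.

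Near the catalytic centre and the 5S rRNA the array gave little. Of 12 listed genes for RPL3, RPL5, RPL8, RPL10 and RPL11, only the RPL8 gene AT3G51190 was measured. It deviated by 0.475, -0.965 and -0.857 millionths in GSH roots, against -0.204, 0.496 and 1.05 in control roots. The groups overlapped through GSH replicate 1, which stood above control replicate 1, and the difference was -0.898 millionths (SE 0.589). With each array centred on its median the difference was -0.300 millionths, and it was -1.36 without GSH replicate 1 and -0.595 without control replicate 3.

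The remaining 21 measured members encode proteins of the body of the subunit, and 17 had groups without overlap. RPL7a, a protein of the solvent side, had the most negative standardised difference of the 20 measured proteins. AT2G47610 deviated by -7.13, -6.50 and -5.28 millionths in GSH roots, against 5.64, 6.21 and 7.07 in control roots. Its arrays formed a tight cluster on each side, so the difference of -12.6 millionths (SE 0.686) equalled -15.01 SDs. Its paralogue AT3G62870 deviated by -12.2, -12.8 and -6.84 millionths in GSH roots, against 14.0, 7.26 and 10.55 in control roots (difference -21.2, SE 2.72). Both RPL7a genes were among the 5 lowest members by standardised difference.

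RPL30, which in yeast represses the splicing of its own transcript, had 2 measured genes, both fully separated. AT1G36240 deviated by -1.76, -1.43 and -1.47 millionths in GSH roots, against 2.04, 1.54 and 1.07 in control roots (difference -3.10, SE 0.30). AT1G77940 deviated by -9.94, -34.4 and -8.37 millionths in GSH roots, against 21.2, 8.33 and 23.2 in control roots. Replicate 2 stood far below the other GSH arrays in AT1G77940, and its standardised difference of -2.98 was smaller than the -8.45 of AT1G36240. The RPL13 gene AT5G23900 had -1.07, -1.12 and -0.925 millionths in GSH roots, against 1.26, 1.17 and 0.693 in control roots. The spread between its arrays was among the smallest, and the difference of -2.08 millionths (SE 0.184) equalled -9.21 SDs. Its RPL13 paralogue outside the set, AT3G48960, had overlapping groups and a standardised difference of -0.79.

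Proteins RPL6 and RPL14 lie together on the solvent face, where eukaryotic subunits carry extra rRNA. The RPL6 gene AT1G18540 deviated by -11.2, -4.97 and -11.5 millionths in GSH roots, against 15.5, 4.84 and 7.32 in control roots (difference -18.5, SE 3.88). The RPL14 gene AT4G27090 deviated by -12.5, -3.99 and -6.66 millionths in GSH roots, against 11.99, 7.57 and 3.57 in control roots (difference -15.4, SE 3.49). In both genes GSH replicate 2 was the highest of its group and control replicate 1 the highest of all arrays. The second RPL14 gene, AT2G20450, was just separated, by 0.825 millionths, with -1.31, -0.529 and -2.40 in GSH roots against 0.296, 2.38 and 1.56 in control roots.

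Among the genes with the brightest probes, RPL15 and RPL18 are core proteins bound to the large rRNA. The RPL15 gene AT4G16720 deviated by -26.7, -21.8 and 2.47 millionths in GSH roots, against 19.8, 11.3 and 14.9 in control roots. The RPL18 gene AT5G27850 deviated by -21.4, -9.62 and -6.01 millionths in GSH roots, against 17.7, 19.4 and -0.119 in control roots. In both, GSH replicate 3 was the GSH array nearest to the controls, and the groups did not touch. The dimmer RPL27 gene AT4G15000 was separated by 1.79 millionths, and GSH replicate 1 was far the lowest array, with -35.0, -0.722 and -2.73 millionths in GSH roots against 12.3, 1.07 and 25.1 in control roots.

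**Figure D2:**
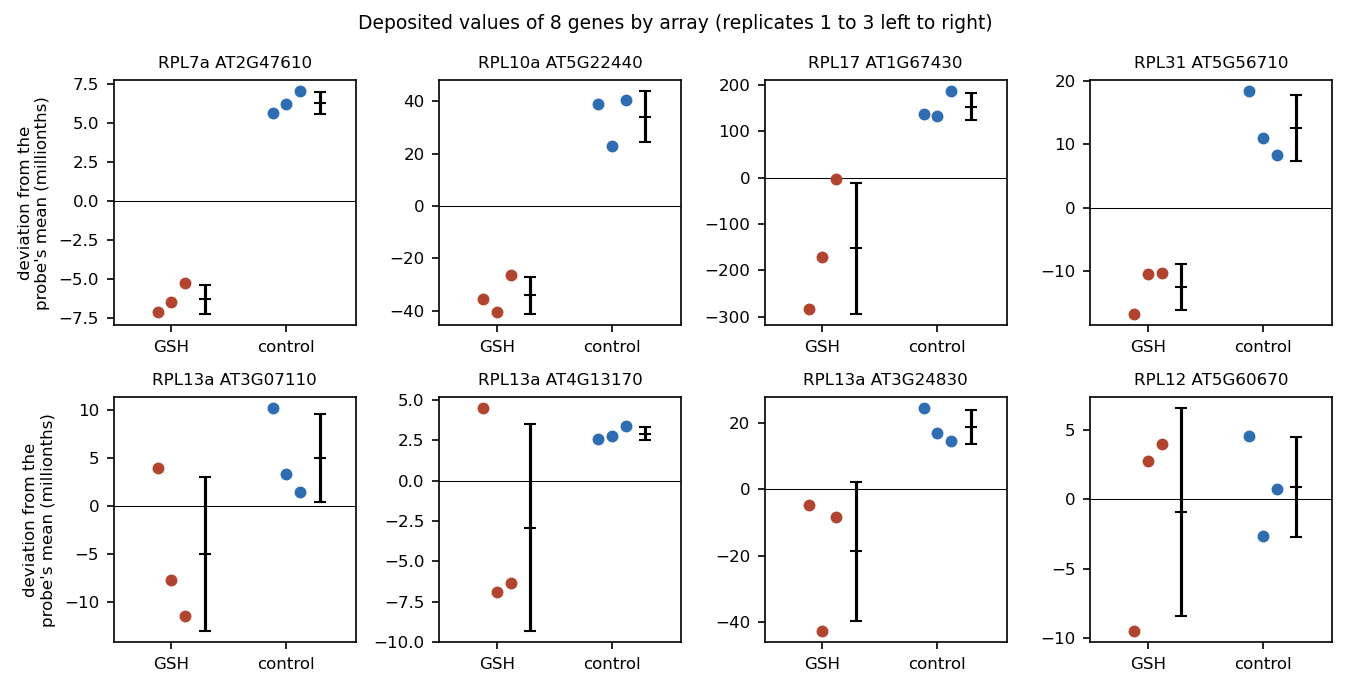
Deviations of 8 genes from their own mean over 6 arrays, in millionths of a deposited unit, for foliar GSH roots (left in each panel) and control roots (right), with the mean and SD (n = 3) beside the points and a scale of its own in each panel. The upper 4 genes are fully separated, while RPL13a AT3G07110 and AT4G13170 and RPL12 AT5G60670 overlap.

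Paralogues were compared within each protein by direction and standardised difference, because levels of different probes are not comparable. Of the 20 proteins, 11 had more than 1 measured member, 28 members in all. Paralogues outside the set were not counted, among them the RPL35 genes AT2G39390 and AT3G55170 with higher means. In 11 of 11 proteins every member had the lower mean after GSH. This follows from all 37 members being lower and adds nothing to it. With each array centred on its median it held for 10 of the 11 proteins, since the RPL19 gene AT3G16780 then had a difference of 0.434 millionths. The degree of separation varied within proteins. It was almost equal in RPL17 (-2.98 and -2.94), RPL15 (-3.02 and -2.68), RPL14 (-3.61 and -2.83) and RPL4 (-3.73 and -3.14). It differed more in RPL7a, RPL30, RPL10a, RPL12, RPL13a (-3.23 to -1.28) and RPL19, and RPL7 (-2.84 to -1.87) lay between. A standardised difference from 3 arrays a group is imprecise, and the differences between paralogues were not tested.

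**Figure D3:**
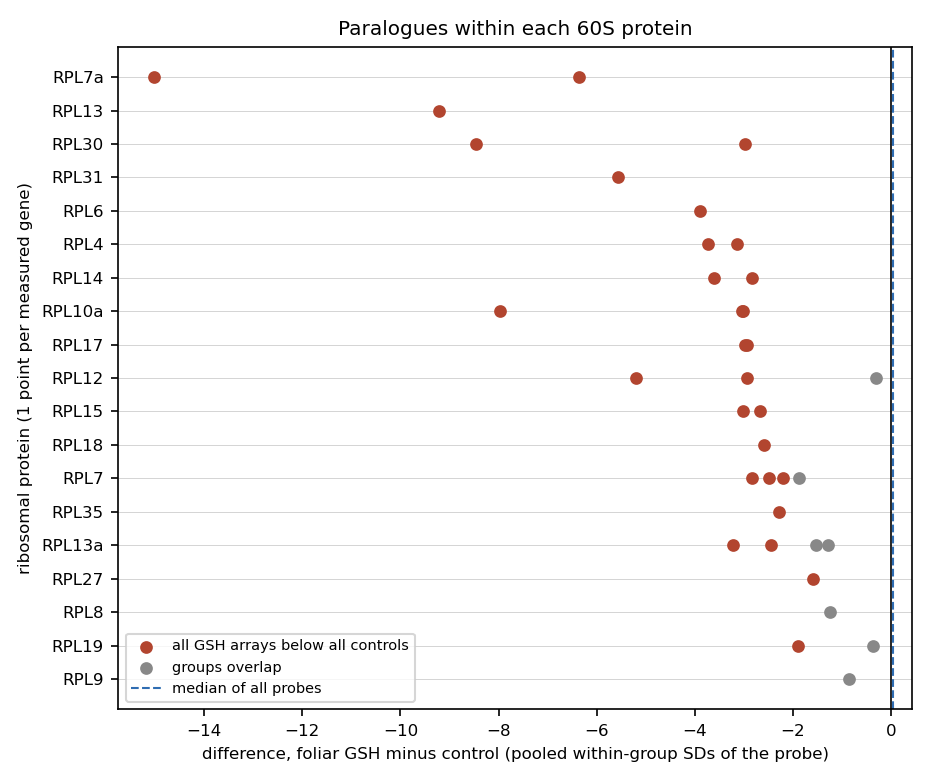
Standardised difference, foliar GSH minus control in pooled within-group SDs, of 36 measured genes (1 point each), by protein, red where every GSH array lies below every control and grey where the groups overlap. All points lie left of 0, and the dashed line marks the median of all probes at 0.05.

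Of the 4 RPL13a genes, AT3G07110 and AT4G13170 were alike in array pattern, a feature picked out after their values were seen. In AT3G07110 the GSH arrays deviated by 3.97, -7.64 and -11.4 millionths, against 10.2, 3.39 and 1.48 in control arrays. In AT4G13170 the GSH arrays deviated by 4.48, -6.88 and -6.34 millionths, against 2.61, 2.75 and 3.38 in control arrays. In both genes GSH replicate 1 stood among or above the controls while replicates 2 and 3 lay below them. The other RPL13a genes were both fully separated but differed in array pattern. AT5G48760 had -34.2, -27.9 and -18.8 millionths in GSH roots against 38.0, 1.25 and 41.7 in control roots. At AT3G24830 GSH replicate 2 was far the lowest array, at -42.8 millionths, against -4.74 and -8.48 in the other GSH arrays and 14.6 to 24.4 in the controls.

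RPL7, the protein with as many measured genes, had 3 separated paralogues. AT2G01250 deviated by -144, -35.9 and -75.5 millionths in GSH roots, against 132, 11.2 and 113 in control roots, and AT2G44120 gave a standardised difference of -2.20. AT3G13580 had the dimmest probe of all members, with a mean signal of 5.62, yet its groups did not overlap, at -21.3, 1.63 and -12.8 millionths in GSH roots and 14.2, 11.97 and 6.18 in control roots. Whether so dim a probe reports its transcript was not tested. The fourth gene, AT1G80750, overlapped, its lowest control minus its highest GSH array being -0.231 millionths, with -0.102, -2.27 and -1.10 in GSH roots against -0.333, 2.35 and 1.45 in control roots.

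Groups overlapped at dim and at bright probes. The 6 lowest mean signals, from 5.62 to 6.12, belonged to AT3G13580, AT3G16780, AT3G51190, AT4G10450, AT5G60670 and AT4G15000. In 4 of these 6 the groups overlapped, AT3G13580 and AT4G15000 being the exceptions. The other 4 of the 8 overlapping members had brighter probes, and 3 of them lay above the median member, among them AT3G07110 at a signal of 7.74 and AT4G13170 at 7.42. The 6 highest, from 8.72 to 9.22, belonged to AT2G27530, AT4G16720, AT5G27850, AT3G62870, AT1G77940 and AT1G67430, and the groups overlapped in 0 of these 6. The median member probe stood at the 98.1st percentile of all probes by signal. Signal depends on the match of the probe to rape sequence as well as on RNA, and its part in the separation was not tested.

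The order of arrays within a group, which the choice of the set by group means did not fix, varied among the members. GSH replicate 1 was the lowest of the 3 GSH arrays at 21 of 37 members (56.8%), against 29.4% of all probes, and GSH replicate 3 was the highest at 19 (51.4%), against 30.8%. Control replicate 2 was the lowest control at 21 members (56.8%), against 32.4% of all probes. This order was not particular to the members. Control replicate 2 was the lowest control at 57.4% of small-subunit (40S), 50% of P-stalk and 50% of other 60S genes. GSH replicate 1 was the lowest GSH array at 42.6%, 50% and 40.6% of these. The 2 shares were 30.8% and 30.8% in 60S assembly factors, and 14.3% and 28.6% in plastid ribosome genes. Median deviations were -1.03, -0.82 and -0.57 SDs in foliar GSH replicates 1 to 3 and 0.97, 0.57 and 0.86 SDs in control replicates 1 to 3. That GSH medians lie below control medians reflects the choice of members with lower GSH means, which does not by itself fix the sign in each array. These signs carry no test. Genes of one array share its RNA and its labelling, so these shares describe 6 arrays and are not 37 separate observations.

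**Figure D4:**
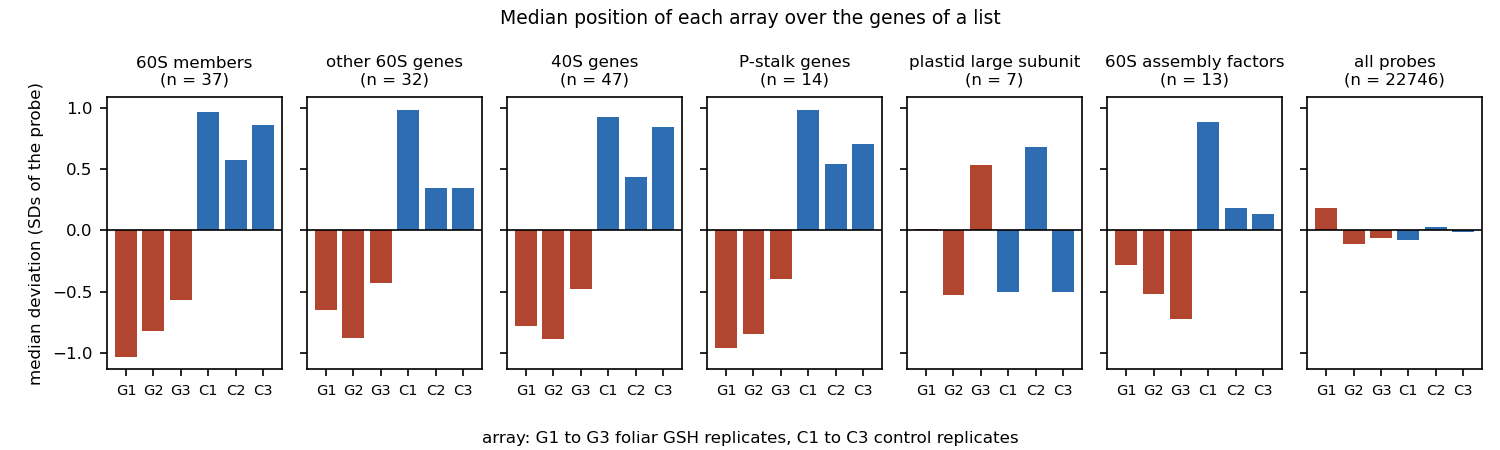
Median deviation of each array (bars, in SDs of the probe) over the genes of 6 lists and over all probes, foliar GSH arrays in red on the left and control arrays in blue on the right of each panel. The 60S members, other 60S, 40S, P-stalk and assembly factor genes have every GSH bar below 0 and every control bar above 0. For the members, the lower GSH side reflects their choice, and the other lists were also chosen with earlier results of these data known. The bars over all probes stay within 0.19 of 0.

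Other genes of the ribosome are given for comparison, with no test of a difference from the members. These lists, too, were chosen with earlier results of these data known. Of 56 further 60S loci outside the set, 32 were measured, and 28 (87.5%) had a lower mean after GSH, against 48.0% of all probes. At 16 (50%) every GSH array lay below every control, against 5.75%, and the median standardised difference was -1.86. At 1 gene, AT1G02830, every GSH array lay above every control, by 0.013 millionths, against 5.63% of all probes. The 4 with a higher mean were the RPL22 gene AT1G02830, the RPL35 genes AT2G39390 and AT3G55170 and the RPL37a gene AT3G10950. Their differences were 0.271, 0.607, 0.018 and 0.0040 millionths, and their probes had signals of 5.43 to 5.89. With these genes included, 65 of 69 measured 60S genes were lower. Of 47 measured small-subunit (40S) genes, 44 were lower and 30 without overlap (median -2.31), and of 14 P-stalk genes 12 were lower and 7 without overlap (median -2.14).

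Genes outside the cytosolic ribosome were counted in the same way. Of 7 measured nuclear genes for the large subunit of the plastid ribosome, 3 had a lower mean after GSH and 0 were separated downward, with a median standardised difference of 0.58. Of 13 factors that assemble the 60S subunit, 10 were lower and 4 without overlap, with a median of -0.81. Of all probes, 48.0% were lower and 5.75% had every GSH array below every control. With each array centred on its median the lower counts were 1 of 7 plastid genes and 5 of 13 assembly factors. They were 24 of 32 further 60S, 39 of 47 40S and 10 of 14 P-stalk genes, against 18.6% of all probes. The assembly factors that turned had differences from -0.499 to -0.00867 millionths. The shift of 0.598 was larger than these, so their turning was fixed by its size. Of 12 elongation factor genes 2 were measured, both for subunits of the eEF1B exchange factor, AT5G12110 at 2.27 millionths (SE 1.78) and AT5G19510 at -7.39 millionths (SE 3.76). By limma 0 members of any list passed over all probes.

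Markers of the cells that make up a root could say little here. Of 12 genes marking dividing cells, which are rich in ribosomes, 0 were measured. Of 10 root markers 2 were measured, the expansin genes EXPA7 and EXPA18 of root hairs, at differences of -27.3 (SE 22.9) and -2.12 millionths (SE 5.62), with overlapping groups. Of 10 leaf markers 2 were measured, the antenna gene LHCB4.1 at 0.280 millionths (SE 0.155) and the Rubisco activase gene RCA at -0.0573 millionths (SE 0.0922). A shift in the mix of root cells and its part in the lower values of the 60S genes were not tested.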

How the data were processed

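Root RNA from 3 foliar GSH and 3 control samples was hybridised to Arabidopsis arrays. The authors deposited one table of probe values, taken as log2 from their range. The summary of probe intensities, their normalization and the base of the logarithm were not given in the sources used here. Per the submitters' processing notes R 2.7.2 was used. The deposited values were not altered. Of 22810 probes, 64 control probes were left out. The platform annotation paired 13513 of the others with 1 gene and 503 with several, and left 8730 unnamed here. Members were matched by locus, and AT2G27530 by its symbol PGY1. The number of arrays limits precision.

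The members and gene lists were chosen with earlier results of these data known. Named genes were the 12 members with the most negative standardised difference, the 6 brightest, the 6 dimmest, and the 3 nearest to overlap on either side (27 genes), plus any with a higher mean or with paralogues of opposite direction (0). Further genes were added after their values were seen. One member, included in all counts, is not reported here by itself. All probes were fitted with limma 3.58.1 in R 4.3.3 (lmFit, eBayes, Benjamini-Hochberg), a step tested on simulated data. Other measures were computed with pandas 2.3.3.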

Additional observations from a re-analysis of the deposited data

How the results depend on the processing

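Whichever array was left out, 35 of 37 members stayed lower after GSH, all but AT3G16780 and AT5G60670. Without single arrays, 36 to 37 of 37 were lower and 29 to 33 separated. The 29 separated with all arrays had to stay so, so these counts could not fall below 29. The median standardised difference ran from -3.37 to -2.52, and 10 to 11 of 11 proteins had paralogues of one direction. Quantile normalization left 5 of the 37 members varying, with 3 lower, 0 separated, a median of -0.82 and a gap between GSH and control array medians of -0.599 SDs, against -1.61 on the deposited values. The other members had the same rank on all arrays and hence no difference there. By limma, 0 probes were called without any single array, 27 after quantile normalization, among the 2688 probes that still varied, and 4 among probes above the median signal. With the replicate number as a block 1 probe was called, and 31 of 37 members were lower in every same-numbered pair. The 29 separated members are lower in any pairing too, so that part of the 31 was fixed. No share of all probes is given for pairs or omissions. The median of the members' pair differences over their SD was -2.01. Deviations of same-numbered arrays from the group means correlated at -0.0188, -0.0181 and 0.103, and GSH replicate 1 correlated most with control replicate 2 (0.109). From 3 arrays a group, these values cannot tell whether same-numbered samples shared more than the number.

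Centring arrays on their medians added 0.598 millionths to every difference. It turned AT3G16780 to 0.434 millionths, and left 24 of 32 other 60S, 39 of 47 40S, 10 of 14 P-stalk and 1 of 7 plastid ribosome genes and 5 of 13 assembly factors lower, against 18.6% of all probes. Without single arrays AT3G16780 ran from -0.447 to 0.0483 millionths (turning without GSH replicate 2 and control replicate 2) and AT5G60670 from -4.26 to 2.49 (turning without GSH replicate 1 and control replicate 1). AT4G10450 ran from -21.8 to -1.28. Without GSH replicate 1 AT4G15000 was at -14.5, against -25.6, and without control replicate 3 AT4G02230 was at -4.89, against -7.62. The lower counts ran from 27 to 29 for the other 60S genes, 43 to 46 for 40S, 12 to 13 for the P stalk, 8 to 11 for assembly factors and 1 to 3 for plastid genes, with 1 only without GSH replicate 3. For 1 of 2 elongation factors the count stayed at 1. Of 193 values recomputed for the 27 named genes, 188 moved by less than the gene's pooled SD, 4 of which turned sign. With 3 arrays a group, leaving out 1 cannot move a difference by a full pooled SD, so there the count says nothing on stability. The larger moves came from centring (AT1G36240, AT5G23900 and AT3G16780) and from quantile normalization (AT3G09630 and AT3G13580). The comparison with probes above the 90th percentile of signal was chosen after seeing the data. So were the settings for the members' array medians and the other lists.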
